A study of Mus musculus with 8 samples.

Results

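Retinoic acid (RA) is a small signaling molecule made from vitamin A, and 10 genes that make it, degrade it, carry it inside the cell or respond to it were followed in mouse notochord-derived cells (NDCs). They were chosen by name for these roles, with earlier results of these data known, and are 10 of the 43346 gene identifiers counted. The enzymes encoded by *Aldh1a1*, *Aldh1a2* and *Aldh1a3* make RA, and those of *Cyp26a1* and *Cyp26b1* degrade it. *Crabp1* and *Crabp2* encode proteins that bind it inside the cell, and *Rara*, *Rarb* and *Rarg* encode the nuclear receptors that carry its signal. RNA was sequenced from 4 litters at embryonic day 12.5 (E12.5) and 4 litters at birth (P0), the start and the end of the change from notochord to nucleus pulposus (NP), the soft centre of the intervertebral disc. The embryos or pups of a litter were pooled, so that each library is a litter.

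All litters were of the *Shh-cre*;ROSA:YFP strain, in which cells that express *Shh*, and the cells that descend from them, carry a yellow fluorescent protein (YFP). The 2 stages differed in more than age. At E12.5 (litters NDP10.2, NPD3, NPD4 and NPD9.2) the notochord was cut out whole, cleared of adjoining tissue and placed in TRIzol without sorting. At P0 (litters NPD26, NPD27, NPD28 and NPD30) NP cells were shaken out of thoracic and lumbar discs and the YFP-positive cells were sorted. Stage and isolation method therefore cannot be told apart in any comparison. In pooled tissue, fewer cells of a type and less RNA per cell cannot be told apart either.

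In the embryo RA is made from retinal by ALDH1A enzymes in defined tissues and spreads to its neighbours, where CYP26 enzymes clear it. The somites beside the notochord are a known source, and RA from them helps to pattern the spinal cord and the vertebral column. In a cell that receives it, RA binds a receptor (RAR) that sits on DNA together with a retinoid X receptor (RXR), at response elements built from a repeated short DNA unit, and transcription of the nearby gene rises. *Rarb* and *Cyp26a1* are well-known direct targets of this kind, so that the pathway's own receptor and its own degrading enzyme respond to its signal.

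Matches to such elements are shown first. In the RefSeq promoter windows (GRCm38.p6, 250 bases before to 50 after each annotated start) a response element was taken as a unit repeated in the same orientation with a spacer of 5 bases (DR5), 2 bases (DR2) or 1 base (DR1), on either strand. The unit could be AGTTCA, it could be AGGTCA, and it could begin with G instead, as in GGTTCA or, with a further G, in GGGTCA. Of the 10 genes, 8 matched a window, and *Aldh1a3* and *Crabp2* did not. A DR5 was found in 2 of the 8, *Rarb* and *Cyp26a1*, and a DR2 or DR1 in none of them. Over all 32851 windows a DR5 was present in 32, or 0.0974%, a DR2 in 0.268% and a DR1 in 0.222%. By gene, a DR5 was present in 31 of 27025, or 0.115%, a DR2 in 0.311% and a DR1 in 0.263%. *Rarb* and *Cyp26a1* were known as direct targets beforehand. Both elements are printed 5′ to 3′ on the strand of the repeat with 6 bases of flank on each side, because they are the 2 matches among the members, whose abundance is given below. The capitals mark the repeated units and the lower-case run between them is the spacer.
Rarb: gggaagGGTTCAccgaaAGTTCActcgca
Cyp26a1: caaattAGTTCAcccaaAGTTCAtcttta
The *Rarb* sequence lies at chr14:16575507-16575535 on the minus strand, the strand of the gene, and its repeat spans 53 to 37 bases before the RefSeq start. All 29 of its bases fall in exons that Gencode M21 gives to *Rarb* transcripts with an earlier start. The *Cyp26a1* sequence lies at chr19:37697770-37697798 and is read on the minus strand, opposite to the gene, with its repeat 32 to 16 bases before the RefSeq start. It lies before the gene, apart from its last base by coordinate, which is the first base of the Gencode M21 exon. The later of the paired units, AGTTCA, was the same in both. Among the 43 other genes of the pathway described below, 30 matched a window, no DR5 or DR2 was found, and *Bco1* held a DR1. A match is a description of letters and does not show that a receptor was bound.

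Reads counted on genes numbered 4442775 to 7180221 per litter at E12.5 and 6371842 to 8904050 at P0, and 3 counts, the floor used here, equalled 0.337 to 0.675 CPM, the reads of a gene scaled to the size of its library. The floor covers counting error only. The E12.5 litters NDP10.2 and NPD9.2 stood apart, with 16.3% and 17.5% of tallied reads ambiguous between genes against 7.07% to 11.6% in the other litters, and results are also given without them. Of the notochord markers, *T* and the keratin genes *Krt8*, *Krt18* and *Krt19* were abundant at both stages, and *Krt19* was called higher at P0 (log2 fold change 1.74, adjusted p = 0.0267). *Foxa1* fell from a mean of 144 CPM to 30.5 CPM (log2 fold change -2.23, adjusted p = 0.00682), and *Foxa2* was at 8.84 CPM at E12.5 against 5.17 CPM at P0 and was not called. *Shh* was at 841 CPM in the E12.5 litters on average and 5.94 CPM in the P0 litters (log2 fold change -7.14, adjusted p = 0.000742), and *Noto* was at or under the floor at both. Markers of several other cells moved with stage, while 0 of 6 tested neural and 1 of 5 tested endothelial markers were called. Of 6 erythroid markers 5 were lower at P0, with sums of 9404 to 42170 CPM at E12.5 against 155 to 488 CPM at P0. All 3 tested osteoblast markers were higher at P0. All 7 sclerotome markers were lower at P0, with a summed level of 134 to 205 CPM at E12.5 against 6.24 to 21.5 CPM at P0. Of 5 neural crest markers 4 were lower. The sums of all 5 overlapped between the stages, at 277 to 529 CPM at E12.5 against 23.4 to 643 CPM at P0. All 10 leukocyte markers were higher at P0, with sums of 72.6 to 208 CPM at E12.5 against 571 to 6412 CPM at P0, where NPD30 was the lowest. Over all genes tested, 12.0% were called lower and 16.0% higher at P0. The part of these markers in the results below was not tested.

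Of the 10 genes, 9 passed the filter on low counts and were tested by the quasi-likelihood method of edgeR, and each p was Benjamini-Hochberg adjusted over all 15467 genes tested. *Cyp26b1*, *Crabp1*, *Crabp2* and *Rarb* were lower in mRNA abundance at P0 than at E12.5, and no member was called higher. The 95% intervals given with the fold changes are not adjusted for the number of genes. That is 4 of 9, or 44.4%, while 27.9% of all genes tested were called in either direction and 12.0% were called lower. The median log2 fold change (P0 over E12.5) was -1.22 over the 9 genes and 0.04 over all genes tested. In the same 4 genes every P0 litter lay below every E12.5 litter, as it did in 14.4% of all genes tested (29.9% were without overlap in either direction). The plot of log2 CPM by litter shows all 10.

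**Figure D1:**
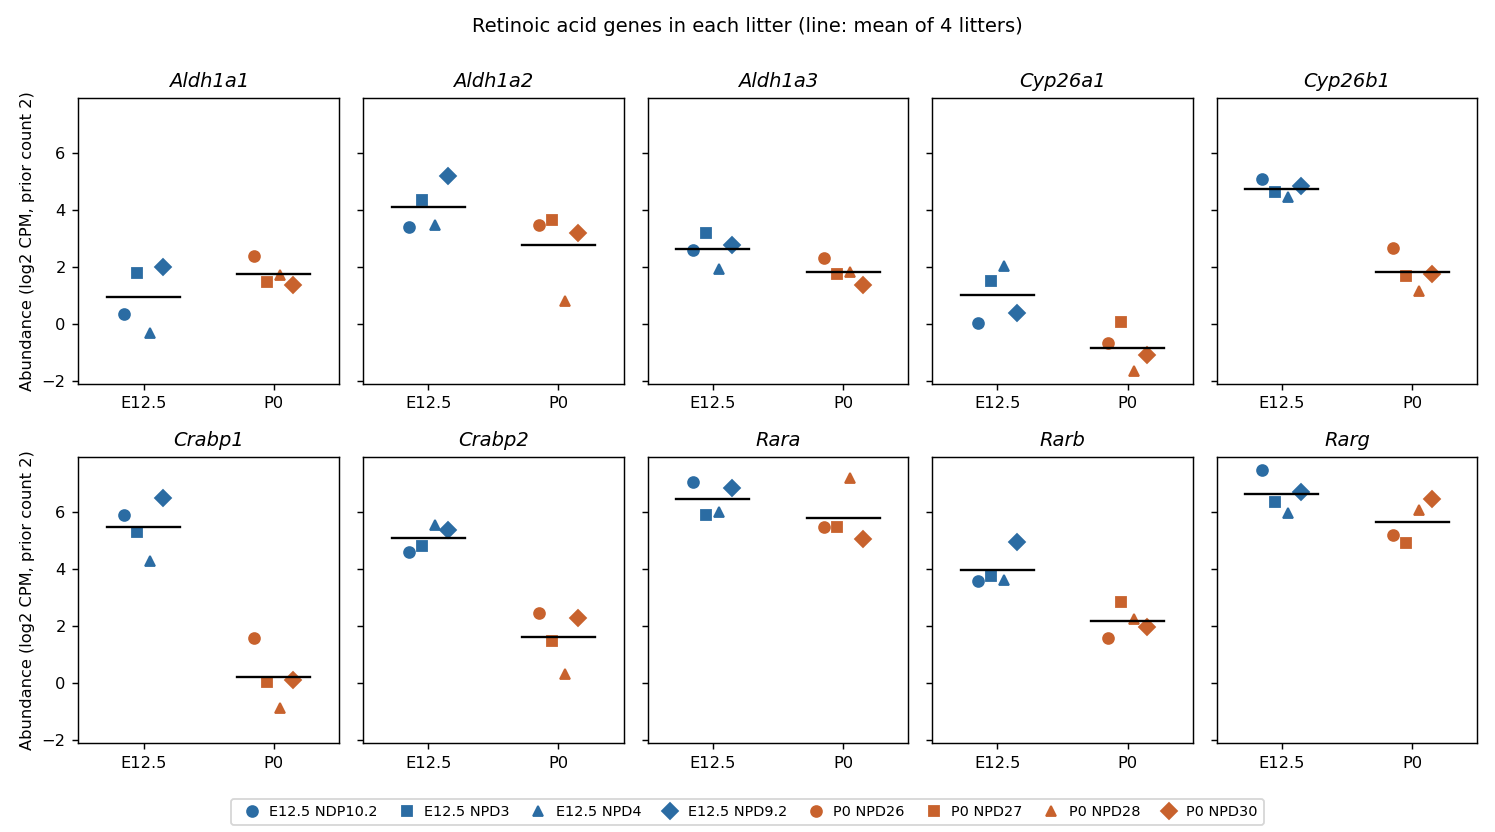
Abundance of the 10 RA genes in each litter, in log2 CPM with a prior count of 2 (vertical axis), at E12.5 (blue) and P0 (orange); each symbol is a litter and each line the mean of 4 litters. The symbols of the stages do not overlap for *Cyp26b1*, *Crabp1*, *Crabp2* and *Rarb*, where P0 is lower, and the single low P0 symbol of *Aldh1a2* is NPD28.

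Among the enzymes that make RA, none differed between the stages at an adjusted p under 0.05. *Aldh1a2* (chr9:71215789-71296243, plus strand, GRCm38), the main RA-producing enzyme of the trunk in the embryo, was the most abundant of them at E12.5. Its levels were 10.14, 20.1, 10.8 and 35.9 CPM in NDP10.2, NPD3, NPD4 and NPD9.2, and 10.7, 12.1, 1.41 and 8.79 CPM in NPD26, NPD27, NPD28 and NPD30. The stages overlapped, since 2 P0 litters were at the level of the lower E12.5 litters, and NPD28 was far below the rest. The mean was 19.2 ± 12.0 CPM at E12.5 against 8.25 ± 4.76 CPM at P0 (SD, n = 4), and the log2 fold change was -1.22 (SE 0.61, 95% interval -2.57 to 0.13, adjusted p = 0.166, edgeR).

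*Aldh1a3* (chr7:66390890-66427517, minus strand), which makes RA in the eye and nasal region among other places, was at 5.66, 8.78, 3.51 and 6.39 CPM in the 4 E12.5 litters and at 4.56, 3.03, 3.18 and 2.27 CPM in the P0 litters, in the order given above. NPD26 was above the lowest E12.5 litter, so the stages overlapped. The mean was 6.09 ± 2.18 CPM at E12.5 against 3.26 ± 0.953 CPM at P0, a log2 fold change of -0.89 (SE 0.44, 95% interval -1.86 to 0.08, adjusted p = 0.159). *Aldh1a1* (chr19:20492715-20643465, plus strand), an enzyme of the eye and of many adult tissues, rested on few reads, 39 at E12.5 and 88 at P0. It was at 0.944, 3.12, 0.484 and 3.69 CPM at E12.5 against 4.87, 2.45, 2.94 and 2.27 CPM at P0, a log2 fold change of 0.63 (SE 0.66, 95% interval -0.82 to 2.09, adjusted p = 0.517). The E12.5 litters fell into a low and a high pair that enclosed most of the P0 values. *Aldh1a7*, a close copy of *Aldh1a1* whose reads may be split with it, had 1 to 53 reads per litter and a log2 fold change of -1.69 (SE 0.75, adjusted p = 0.118), so the reads of *Aldh1a1* are uncertain.

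Of the enzymes that degrade RA, *Cyp26b1* (chr6:84571414-84593908, minus strand) was 7.70-fold lower at P0. It was at 33.0, 24.0, 21.2 and 27.8 CPM in the E12.5 litters and at 5.98, 2.88, 1.88 and 3.03 CPM in the P0 litters. No litter of one stage came near the other, and the spread among E12.5 litters was narrow. The mean was 26.5 ± 5.13 CPM at E12.5 against 3.44 ± 1.76 CPM at P0, a log2 fold change of -2.94 (SE 0.38, 95% interval -3.79 to -2.10, adjusted p = 0.000492). Without NDP10.2 and NPD9.2 it was -2.75 (adjusted p = 0.0132).

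*Cyp26a1* (chr19:37697798-37701536, plus strand), the RA-induced enzyme whose DR5 is shown above, was too sparse for the filter, with 51 reads over the E12.5 litters and 8 over the P0 litters. Its counts were 3, 13, 31 and 4 at E12.5 and 2, 5, 0 and 1 at P0. NPD4 and NPD3 held most of the reads, and 3 of the P0 litters were under the floor of 3 counts. Scaled to library size, NPD27 was at 0.721 CPM, between NDP10.2 at 0.708 CPM and NPD9.2 at 0.984 CPM. The mean was 1.99 ± 1.42 CPM at E12.5 against 0.297 ± 0.311 CPM at P0. A two-sided exact permutation test of log2 CPM gave p = 0.0571, where 0.0286 is the smallest that 4 against 4 litters allow. In the edgeR fit without a filter its log2 fold change was -2.74 (SE 1.09, adjusted p = 0.0729), so no difference was called in either test.

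The genes for the proteins that bind RA showed the largest differences in mRNA among the members. *Crabp1* (chr9:54764748-54773110, plus strand), which holds RA in the cytoplasm, was 47.9-fold lower at P0. It was at 59.7, 39.2, 19.0 and 89.8 CPM in the E12.5 litters and at 2.67, 0.721, 0.235 and 0.758 CPM in the P0 litters. The lowest E12.5 litter, NPD4, was still above the highest P0 litter, NPD26, whose 17 reads made up most of the 29 found at P0, and NPD28 was under the floor with 2 reads. The mean was 51.9 ± 30.2 CPM at E12.5 against 1.10 ± 1.08 CPM at P0, a log2 fold change of -5.58 (SE 0.71, 95% interval -7.16 to -4.00, adjusted p = 0.000551). It was -6.48 without NPD26 and -4.78 (adjusted p = 0.0112) without NDP10.2 and NPD9.2.

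*Crabp2* (chr3:87948666-87953376, plus strand), which hands RA to the receptors in the nucleus, was 10.7-fold lower at P0. It was at 23.8, 27.7, 45.9 and 41.6 CPM in the E12.5 litters and at 5.19, 2.45, 0.942 and 4.55 CPM in the P0 litters. The stages did not overlap, and NPD4, the lowest E12.5 litter for *Crabp1*, was the highest for *Crabp2*. The mean was 34.8 ± 10.7 CPM at E12.5 against 3.28 ± 1.95 CPM at P0, a log2 fold change of -3.41 (SE 0.49, 95% interval -4.48 to -2.35, adjusted p = 0.000757). Without NDP10.2 and NPD9.2 it was -3.53 (adjusted p = 0.0131).

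Of the receptors, only *Rarb* passed the test with all litters. *Rarb* (chr14:16430839-16819156, minus strand), the RA-induced receptor whose DR5 is shown above, was 3.78-fold lower at P0. It was at 11.8, 13.3, 12.0 and 30.5 CPM in the E12.5 litters and at 2.67, 6.92, 4.47 and 3.64 CPM in the P0 litters. NPD9.2 was far above the other E12.5 litters, which were close together, and every P0 litter was below all of them. The mean was 16.9 ± 9.10 CPM at E12.5 against 4.43 ± 1.82 CPM at P0, a log2 fold change of -1.92 (SE 0.44, 95% interval -2.89 to -0.95, adjusted p = 0.00797). It lost the call without NDP10.2 and NPD9.2 (log2 fold change -1.55, adjusted p = 0.0525). The exons of *Rarb* overlap those of *Top2b* and of an antisense RNA on the plus strand, and the strand setting of the counting was not given in the sources used here. The log2 fold change of *Top2b* was -0.12 (adjusted p = 0.822).

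*Rarg* (chr15:102234938-102257517, minus strand), the receptor known for its role in cartilage and skin, was at 176, 82.3, 62.5 and 104 CPM in the E12.5 litters and at 36.2, 29.99, 67.2 and 86.7 CPM in the P0 litters. NPD28 and NPD30 lay within the E12.5 range, and NPD26 and NPD27 lay below it. The mean was 106 ± 49.7 CPM at E12.5 against 55.0 ± 26.7 CPM at P0, a log2 fold change of -0.95 (SE 0.41, 95% interval -1.84 to -0.05, adjusted p = 0.108). Without NPD30 alone, *Rarg* was called lower at P0 (log2 fold change -1.29, SE 0.40, adjusted p = 0.0303).

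*Rara* (chr11:98927818-98974942, plus strand), the most widely expressed receptor of the family, was at 131, 59.9, 64.0 and 113 CPM in the E12.5 litters and at 44.3, 44.6, 145 and 32.6 CPM in the P0 litters. NPD28 was the highest of all 8 litters, and the other P0 litters were below every E12.5 litter. The mean was 92.1 ± 35.6 CPM at E12.5 against 66.7 ± 52.6 CPM at P0, a log2 fold change of -0.46 (SE 0.48, 95% interval -1.52 to 0.60, adjusted p = 0.512). Without NPD28 alone it was -1.18 (SE 0.33, adjusted p = 0.0267), and without NDP10.2 and NPD9.2 it was 0.06 (adjusted p = 0.956). The call and the direction of *Rara* thus rested on which litters were included.

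**Figure D2:**
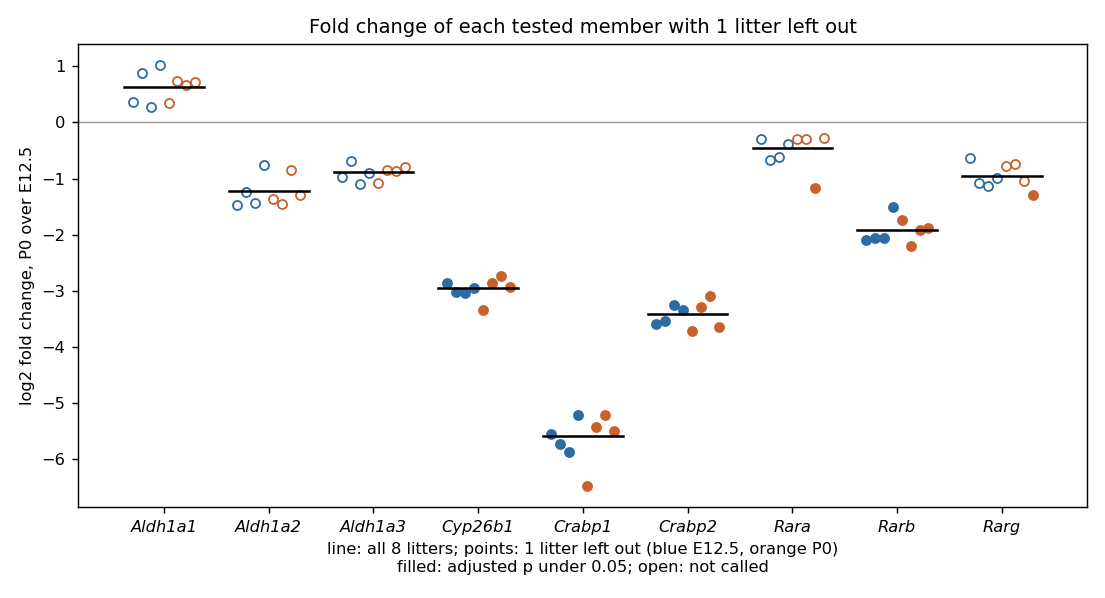
Log2 fold change (P0 over E12.5, vertical axis) of the 9 tested members with all 8 litters (line) and with 1 litter left out (points; blue, an E12.5 litter; orange, a P0 litter); filled points have an adjusted p under 0.05 in edgeR's test. *Cyp26b1*, *Crabp1*, *Crabp2* and *Rarb* are filled in all 8 fits, while *Rara* and *Rarg* are filled in 1 fit each.

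The calls for *Cyp26b1*, *Crabp1*, *Crabp2* and *Rarb* were kept in each of the 8 fits that left out 1 litter. In those fits the log2 fold change ranged from -3.33 to -2.73 for *Cyp26b1*, from -6.48 to -5.21 for *Crabp1*, from -3.72 to -3.09 for *Crabp2* and from -2.20 to -1.51 for *Rarb*. The genes for RA synthesis were called in none of these fits. Without NDP10.2 and NPD9.2 the log2 fold change was 0.80 for *Aldh1a1*, -0.94 for *Aldh1a2*, -0.94 for *Aldh1a3* and -0.43 for *Rarg*, none of them called.

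Levels were compared between genes per kilobase (kb) of exon. At E12.5 *Crabp1* was first at a mean of 64.7 CPM per kb, followed by *Crabp2* at 26.3, *Rarg* at 24.9 and *Rara* at 21.1 CPM per kb. *Aldh1a2* (8.49 CPM per kb), *Cyp26b1* (4.95) and *Rarb* (3.21) came next, and *Aldh1a3* (1.32), *Cyp26a1* (1.01) and *Aldh1a1* (0.417) were last. In this order the litters of neighbours overlapped except between *Rarb* and *Aldh1a3*. At P0 the receptors *Rara* (15.3 CPM per kb) and *Rarg* (12.9) led, above all litters of *Aldh1a2* (3.65), the next gene. *Crabp2* (2.48) and *Crabp1* (1.37) had moved to the middle of the order, followed by *Rarb* (0.841), *Aldh1a3* (0.706), *Cyp26b1* (0.643) and *Aldh1a1* (0.635). *Cyp26a1* (0.150) was last and was set apart from *Aldh1a1*, and no other neighbours at P0 below *Aldh1a2* were apart. The gap below *Aldh1a1* rests on few reads, since *Cyp26a1* had 8 over the P0 litters. In all, 3 of the 18 neighbouring pairs did not overlap.

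The make-up of each family, as a share of its summed level per kb, was described without a test. *Aldh1a2* held 76.0% to 88.1% of the synthesis family at E12.5 against 32.7% to 82.3% at P0, where NPD28 was the lowest. *Cyp26b1* held 67.7% to 94.5% of the breakdown family at E12.5 against 59.7% to 100% at P0. The P0 shares of this family are imprecise, as it held 16 to 40 reads per P0 litter. *Crabp1* held 40.5% to 80.5% of the binding family at E12.5 against 21.6% to 45.9% at P0, on 10 to 50 family reads per P0 litter. *Crabp1* was thus above *Crabp2* in 3 of 4 litters at E12.5, with ratios of 4.13, 2.33, 0.681 and 3.56, and below it in all 4 at P0, with ratios of 0.849, 0.485, 0.412 and 0.275. Of the receptors, *Rarb* was the smallest share in every litter, at 3.04% to 10.3% at E12.5 against 1.70% to 7.08% at P0. The ratio of *Rara* to *Rarg* was 0.726, 0.710, 0.999 and 1.07 at E12.5 and 1.20, 1.45, 2.11 and 0.367 at P0. It was above every E12.5 litter in 3 P0 litters and below them all in NPD30.

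The sums of the families were also set against each other within each litter. The summed level of the synthesis genes was 5.61 to 17.99 CPM per kb at E12.5 and 1.91 to 6.70 at P0, and that of the breakdown genes was 5.69 to 6.53 CPM per kb at E12.5 and 0.352 to 1.28 at P0. Synthesis over breakdown was thus 0.904, 1.98, 0.960 and 3.16 at E12.5 and 5.25, 7.21, 5.42 and 7.52 at P0. All P0 litters were above all E12.5 litters in this ratio. The synthesis sums of the stages overlapped, while the breakdown sums did not and were lower at P0. The binding genes summed to 58.4 to 143 CPM per kb at E12.5 and 1.01 to 7.26 at P0, and the receptors to 31.6 to 73.7 and 18.6 to 49.9. Binding over receptors was 1.25, 1.96, 1.85 and 2.55 at E12.5 and 0.379, 0.148, 0.0202 and 0.154 at P0. The summed mRNA level of the binding genes was above that of the receptor genes in every E12.5 litter and below it in every P0 litter. These ratios were formed from genes whose differences were known, and no test was applied to them. At P0 they rest on the few breakdown and binding reads given above.

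**Figure D3:**
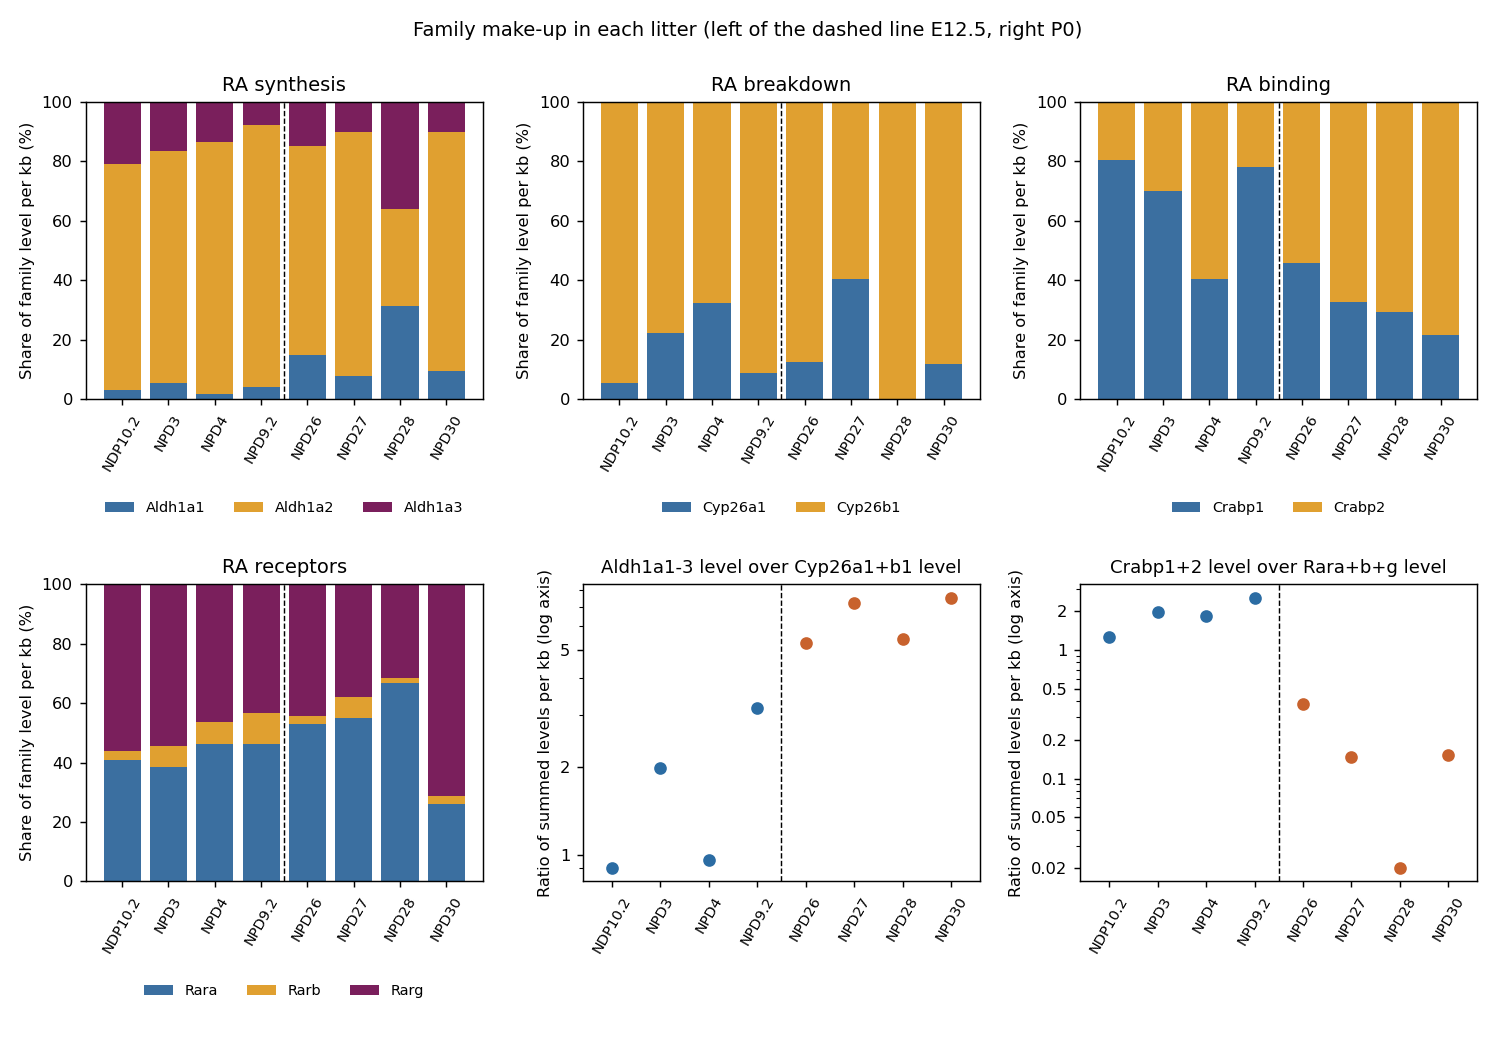
Share of each RA gene in its family's summed level per kb of exon (stacked bars, percent, 1 bar per litter) and the ratios of the synthesis to the breakdown genes and of the binding genes to the receptors (points, log axis; blue, E12.5; orange, P0). The synthesis to breakdown ratio is 0.904 to 3.16 at E12.5 against 5.25 to 7.52 at P0, and the binding to receptor ratio is 1.25 to 2.55 at E12.5 against 0.0202 to 0.379 at P0.

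The rest of the pathway was described with 43 other genes in 5 lists by role, chosen with earlier results of these data known. Of the 43 genes, 27 passed the filter. Of these, 7 were lower and 3 were higher at P0, or 37% of those tested against 27.9% of all genes (12.0% lower and 16.0% higher). Their median log2 fold change was -0.03. The plot of fold changes gives the fold changes beside those of the members.

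Among the genes for retinol uptake and storage, *Stra6*, the receptor that brings retinol into the cell, was lower at P0. It was at 22.4 to 29.0 CPM at E12.5 against 1.41 to 3.93 CPM at P0, with no overlap between the stages (log2 fold change -2.98, SE 0.36, adjusted p = 0.000363).

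Of 12 genes that interconvert retinol and retinal or make retinal from carotenes, 6 were tested and the median was 0.08. Of the 6, 16.7% were called, against 27.9% of all genes tested. *Dhrs3*, which turns retinal back into retinol and so away from RA, was the one gene that passed, and it was higher at P0. It was at 16.9 to 54.7 CPM at E12.5 against 59.1 to 174 CPM at P0 (log2 fold change 1.61, SE 0.42, adjusted p = 0.0154), and it lost the call without NPD3 (adjusted p = 0.0528). *Rdh10*, the main enzyme that makes retinal for RA synthesis in the embryo, was at 21.6 ± 6.17 CPM at E12.5 against 21.3 ± 3.76 CPM at P0. Of the other degrading enzyme and carrier, *Cyp26c1* was below the filter, and *Fabp5*, which can carry RA to another nuclear receptor, had a log2 fold change of 0.27 (SE 0.54, adjusted p = 0.750).

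All 9 receptor partners and cofactors were tested, 1 passed (11.1%, against 27.9% of all genes tested) and the median was 0.23. *Ncoa3*, a coactivator of nuclear receptors, was at 56.6 to 83.9 CPM at E12.5 against 58.1 to 244 CPM at P0 (log2 fold change 1.21, SE 0.38, adjusted p = 0.0342). Its stages overlapped, and it was called in 1 of the 8 fits that left out a litter, the one without NPD30. It was not called without NDP10.2 and NPD9.2 either (adjusted p = 0.119). The RXR genes missed the threshold in this fit. *Rxra* was at 1.03 on the log2 scale (SE 0.35, adjusted p = 0.0502) and *Rxrg* at -1.70 (SE 0.59, adjusted p = 0.0518), while *Rxrb* was at 0.54 (SE 0.27, adjusted p = 0.170). In the fit without a filter on low counts *Rxra* (adjusted p = 0.00749) and *Rxrg* (adjusted p = 0.0119) were called.

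Of 12 genes that RA is known to induce in various cells, 7 were tested, 5 were lower, 1 was higher and the median was -1.27. The share called was 85.7% of those tested, against 27.9% of all genes tested (12.0% lower and 16.0% higher). *Meis2* and *Meis1*, homeobox factors of the trunk and proximal limb, were lower at P0. *Meis2* was at 108 to 211 CPM at E12.5 against 9.18 to 18.9 CPM at P0 (log2 fold change -3.50, SE 0.32, adjusted p = 0.000109), and *Meis1* at 50.0 to 108 and 17.0 to 21.9 CPM (log2 fold change -2.21, SE 0.28, adjusted p = 0.000454). *Nr2f1* and *Nr2f2*, orphan nuclear receptors also called COUP-TFs, were lower as well. *Nr2f1* was at 34.2 to 68.9 CPM at E12.5 against 1.18 to 5.50 CPM at P0 (log2 fold change -3.59, SE 0.45, adjusted p = 0.000410). *Nr2f2* was at 107 to 182 and 31.0 to 99.2 CPM (log2 fold change -1.27, SE 0.34, adjusted p = 0.0171), and it lost the call without NDP10.2 and NPD9.2 (adjusted p = 0.106).

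*Tgm2*, a transglutaminase, was the weakest of the 5, at 32.2 to 102 CPM at E12.5 against 24.2 to 39.8 CPM at P0 (log2 fold change -1.10, SE 0.33, adjusted p = 0.0303). Its stages overlapped, and it was called in 4 of the 8 fits that left out a litter, losing the call without NDP10.2, NPD3, NPD26 or NPD27. It also lost the call without NDP10.2 and NPD9.2 together (adjusted p = 0.165). *Rarres1*, named as an RA receptor responder, went the other way, from 0.967 to 3.20 CPM at E12.5 up to 3.61 to 42.6 CPM at P0 (log2 fold change 3.63, SE 0.71, adjusted p = 0.00400). The stages did not overlap in this gene either, but the P0 litters spread more than the E12.5 litters. Many of these genes also respond to other signals, whose part was not tested. The sclerotome and leukocyte markers given above moved with stage in the same libraries, and their part in these differences was not tested either.

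**Figure D4:**
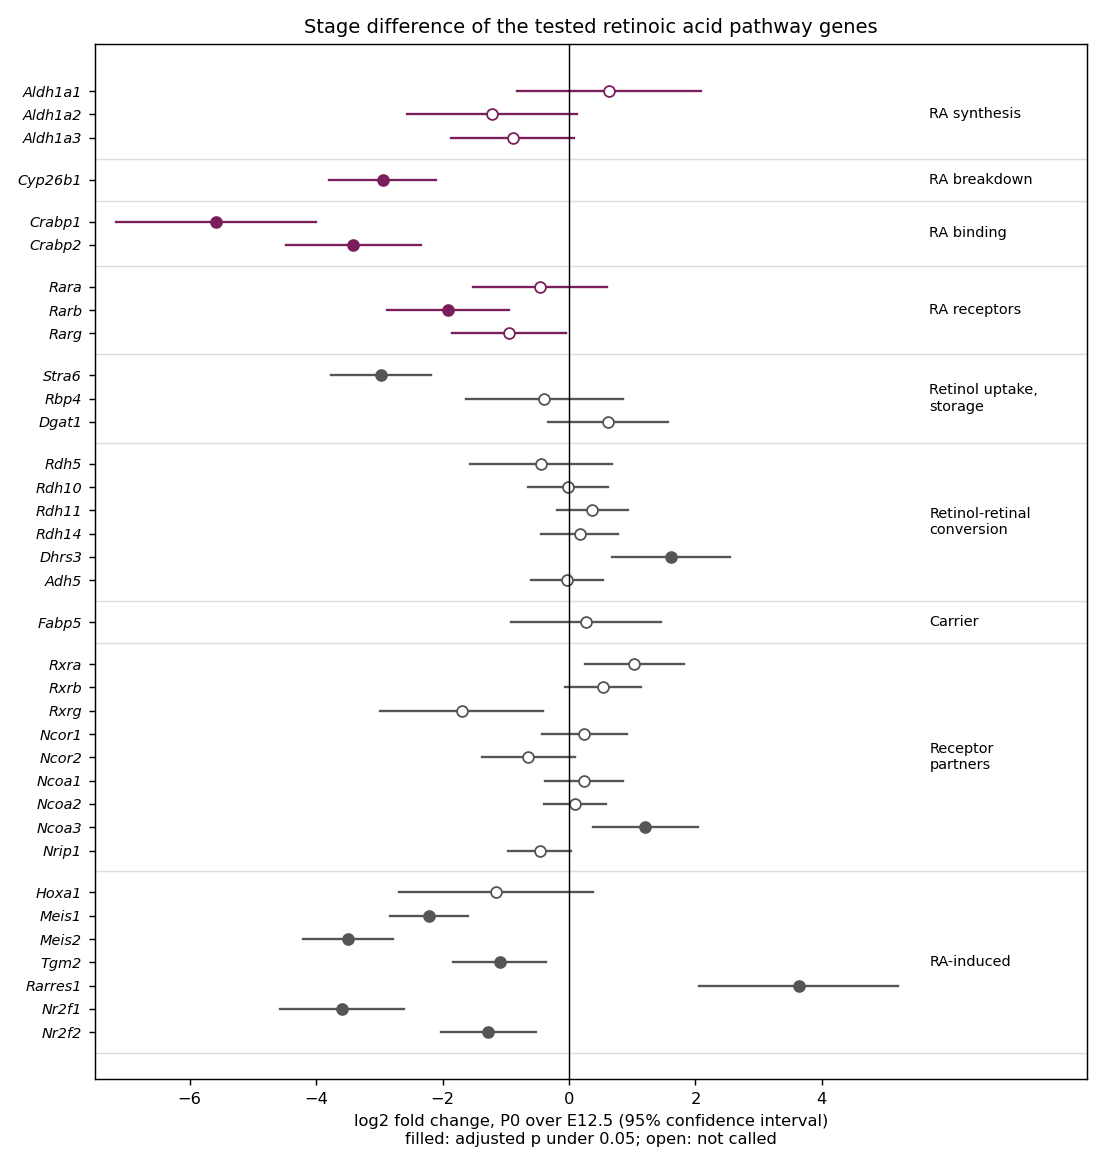
Log2 fold change (P0 over E12.5, horizontal axis) of tested genes of the RA pathway with 95% intervals, grouped by role, the 9 tested members in purple and the other pathway genes in grey; filled circles have an adjusted p under 0.05. *Crabp1* (-5.58) lies farthest to the left and *Rarres1* (3.63) farthest to the right.

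For each member, the tested genes whose log2 CPM ran most like it over the 8 litters were listed as a description, since the litters share stage, depth and isolation method. The search covered 13458 genes. The closest to *Crabp1* were *Igf2os* and *Axin2*, a target of Wnt signaling (Pearson's r = 0.995 for both), and *Sema3f* (0.992). *Axin2* (0.991) was also close to *Cyp26b1*, beside the trunk homeobox gene *Hoxb5* (0.991) and *Crabp1* itself (0.990). Those closest to *Crabp2* were *Gm3788* (0.991), *Nr2f1* (0.990) and *Hoxc4* (0.987). *Rarb* ran with *Fam227a*, *Bnc1* and *Cdh1*, *Rarg* with *Zc3h7b*, *Chpf* and *Celsr1*, and *Rara* with *Slc9a3r1*, *Cntrob* and *Ddx41*. *Aldh1a2* ran with *Mrpl52*, *Mrps12* and *Gm12254*, *Aldh1a3* with *Stx3*, *Ildr2* and *Mpg*, and *Aldh1a1* with *Timp1*, *Zbtb8a* and *Cog4*. None of the receptor or synthesis genes had another of the 10 genes among its closest 3.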

How the data were processed

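RNA-Seq libraries (TotalScript kit, single-end) were made from the NDCs of 4 litters at E12.5 and 4 at P0. The authors aligned the reads with STAR 2.4.0j to GRCm38.p3, counted them with HTSeq on Gencode M4 genes and deposited raw counts per gene, without normalization. The submitters' processing notes also name mm9, with no role given, and the strand setting was not given in the sources used here. Summary rows that name no gene held 65.2% to 77.4% of tallied reads and were left out. Symbols and positions come from Gencode M21, which matched 42462 of 43346 identifiers.

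Counts were tested in R 4.3.3 with edgeR 4.0.16 (TMM, filterByExpr with a minimum count of 10 and total of 15, robust quasi-likelihood F-test, stage as the single term, Benjamini-Hochberg adjustment over 15467 genes), with calls made where the adjusted p was under 0.05. The method was tested on simulated data. In these, fewer genes differed than were called here, and each gene had the same dispersion at both stages. CPM uses TMM library sizes, and a prior count of 2 is added for log2 CPM. Standard errors (SE) were taken as the log2 fold change over the root of F. Litters are separate samples, and p-values measure the spread between them. A level per kb divides CPM by the summed M21 exon length. RefSeq promoter windows (GRCm38.p6) were searched for direct repeats.

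The members and the lists of other pathway genes and markers were chosen with earlier results of these data known. Named were the 10 members, every called gene of the other pathway lists (up to 5 per list and direction), genes needed to state a small count (1 called gene and 1 marker are not reported here), and for each tested member the 3 genes with the highest Pearson's r among tested genes with a mean log2 CPM of at least 2. Alternatives were DESeq2 1.42.0, limma-voom (limma 3.58.1), DESeq2 size factors, upper quartile scaling, no filter, a minimum of 10 counts in every sample, non-robust estimates, libraries without mitochondrial and hemoglobin genes, libraries thinned to the depth of the smallest, each litter left out, both E12.5 litters that stood apart left out, a prior count of 0.5, and levels without TMM. Other marker lists, tested and called, were notochord (7 tested, 2 lower and 1 higher), neural (6 tested, 0 called), muscle (4 tested, 2 lower), erythroid (6 tested, 5 lower), endothelial (5 tested, 1 lower), osteoblast (3 tested, 3 higher), growth plate (3 tested, 2 higher) and liver (4 tested, 4 lower).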

Additional observations from a re-analysis of the deposited data

Results flagged for a closer look

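In 4 of the 40 groups of 4 litters examined (20 genes at 2 stages), 1 litter lay far from the other 3 by Dixon's 95% criterion, which chance meets in about 1 group in 20. At P0, NPD28 was low for *Aldh1a2* (0.79 log2 CPM against 3.19 to 3.64 in the other litters), for *Stra6* (0.79 against 1.97 to 2.09) and for *Nr2f1* (0.58 against 2.42 to 2.54). At E12.5, NPD9.2 was high for *Rarb*, at 4.95 log2 CPM against 3.60 to 3.76. NPD28 also had the lowest sum of sclerotome markers at P0 (6.24 CPM against 15.3 to 21.5) and the highest abundance of *Rara* (145 CPM), and no relation of these values to the outlying ones was tested.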

How the results depend on the processing

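The number of members called was 4 in edgeR's fit and 2 of the 6 left when at least 10 counts were required in every sample. That filter removes genes that fell to low counts, and 3063 of all 11719 genes were called under it. *Crabp1* and *Crabp2* were removed by it and have no value there, while *Cyp26b1* and *Rarb* kept their calls. The number of members called was 3 without NDP10.2 and NPD9.2 (2581 of all 16971 genes called) and 4 to 5 with 1 litter left out (3612 to 4529 genes called). The number of other pathway genes called was 10 of 27 tested in edgeR's fit, where 4321 of all 15467 genes were called. It was 9 to 13 of 29 to 30 with 1 litter left out and 7 of 30 without NDP10.2 and NPD9.2. With limma-voom 8 of 27 were called (7 lower, 1 higher), against 4064 of all 15467 genes. With DESeq2 12 of 27 were called (8 lower, 4 higher), against 5124 of all 15467. With no filter 43 were fitted and 14 called (9 lower, 5 higher), against 4894 of all 32299 genes. *Rxra* and *Rxrg* were called in that fit. *Rara* turned from -0.46 to 0.0645 on the log2 scale without NDP10.2 and NPD9.2 (adjusted p = 0.956). Of 338 values of 19 genes under the alternatives, 316 kept their direction and side of the threshold, 19 lost the call, 2 gained it (*Rara* without NPD28, *Rarg* without NPD30) and 1 reversed; the cause was not tested. *Rarres1* lost the call in limma-voom (adjusted p = 0.0636). No paired analysis was possible because the labels give the stages no shared litter numbers. Few reads limit *Cyp26a1* and *Aldh1a1* at these depths.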

Other observations

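A gene of the retinol and retinal list that was below the filter, *Dhrs9*, was chosen after its values were seen. This dehydrogenase, which can oxidize retinol, had 0, 0, 1 and 0 reads at E12.5 but 7, 63, 788 and 106 reads at P0, in NPD26, NPD27, NPD28 and NPD30 in turn (1.10, 9.08, 92.8 and 16.1 CPM). The P0 litters differed widely among themselves, and NPD28 held most of the reads. *Ttr*, the carrier of the retinol-binding protein in blood, ran the other way, with 81, 2, 72 and 63 reads in NDP10.2, NPD3, NPD4 and NPD9.2 and 0, 0, 1 and 1 at P0. *Ttr* is also a strong product of the liver, whose markers summed to 43.9 to 693 CPM at E12.5 and 0.589 to 2.20 CPM at P0, and their part in its level was not tested. *Rxra* was at 55.2, 45.7, 34.9 and 62.9 CPM at E12.5 and at 114, 153, 95.2 and 43.8 CPM in the P0 litters, where NPD30 alone lay within the E12.5 range. *Rxrg* was at 11.1, 7.22, 9.07 and 15.5 CPM at E12.5 and at 5.19, 5.48, 0.706 and 1.82 CPM at P0, with no overlap between the stages.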
